A study of Mus musculus with 16 samples.

Results

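Cd36, Fabp4, Lpl, Pparg and Cav1, which act in the uptake of fatty acids, and Pecam1, Cdh5, Kdr, Tie1 and Egfl7, which mark vascular endothelium, were followed through medullary thymic epithelial cells (mTEC) of Rbfox1 tKO and Rbfox2 tKO mice. These 10 genes were the rows of the count table whose Ensembl identifiers map to the 10 symbols, out of 89407 rows, of which 53464 are Ensembl genes. They were chosen by the measured counts themselves: Cd36 and Fabp4 were higher in immature mTEC of Rbfox2 tKO mice, and the other genes were added to ask whether endothelial genes rose with them. For that comparison their values are therefore given as a description, without a test. The other comparisons were tested. That of mature and immature control mice shares the immature Rbfox2 control libraries with the comparison of the choice, and earlier results of these data were known.

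From each of 8 mice the mature and the immature mTEC were sequenced, which gave 16 libraries in 8 groups of 2. Rbfox1 tKO mice were Rbfox1 lox/lox with Foxn1 wildtype/cre, and their controls were Rbfox1 lox/lox with Foxn1 wildtype/wildtype. Rbfox2 tKO mice were Rbfox2 lox/lox with Foxn1 wildtype/cre, and their controls were Rbfox2 lox/lox with Foxn1 wildtype/wildtype, so that all mice carried floxed alleles, and Cre and loss of the RBFOX gene cannot be told apart. Foxn1 drives Cre in thymic epithelial cells, and the labels give the strain as C57BL/6 and the age as 4 to 6 weeks, whereas the methods describe a mixed background. Each group held 1 male and 1 female mouse. Cells were sorted from thymus as CD45-, EpCAM+, Ly51- and UEA+ with MHCII high for mature and MHCII low for immature mTEC, which for 10000 sorted cells a library gave total counts of 3737884 to 4636367 in mature and 1506134 to 2430287 in immature mTEC. Rbfox2, in CPM (counts scaled by the library's total, here with TMM factors), was at 23.4 and 37.5 in immature Rbfox2 tKO libraries against 93.8 and 105 in their controls, and at 9.49 and 16.1 against 56.6 and 57.6 in mature ones. Rbfox1, counted over the whole gene with exons outside the deleted part, was at 29.7 and 33.9 against 48.2 and 52.2 CPM in mature Rbfox1 tKO libraries. In immature libraries labelled Rbfox1 tKO it was at 151 and 152 against 159 and 163 CPM, so the count of the whole gene did not check that label. Epcam, read for the epithelial label in the controls, was at 733 to 798 CPM in immature and 580 to 638 CPM in mature mTEC. Its level in bulk RNA does not show whether other cells were present.

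Long-chain fatty acids reach tissues in lipoproteins and bound to albumin. Lipoprotein lipase frees them at the capillary wall, the scavenger receptor CD36 and caveolae take part in their passage over the membrane, and fatty acid binding proteins carry them inside the cell. PPARγ, a nuclear receptor that binds fatty acids, drives such genes in adipocytes and in capillaries of heart, muscle and fat. Capillary endothelium therefore expresses several of the uptake genes beside its own adhesion molecules and growth factor receptors. Medullary thymic epithelium differs from other epithelia in that its mature cells transcribe genes of many other tissues for display to thymocytes, so a gene typical of another tissue can be read in it. Endothelial cells carry no EpCAM, and a gate on EpCAM is meant to leave them out.

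Of the 10 genes, 6 had a promoter in the RefSeq table for GRCm38.p6, with 11 start sites in all, from 250 bases before to 50 bases after each start. Fabp4, Lpl, Pecam1 and Cdh5 had none there. The 300 bases of Cd36, the gene with the largest difference in immature Rbfox2 tKO mTEC, are shown beside those of Kdr and Tie1, the endothelial genes with the largest and the smallest difference. Capitals mark matches to 3 motifs on either strand, which do not overlap each other: AGGTCA, the half-site of nuclear receptors such as PPARγ; CAGGAA, a core bound by ETS factors; and AGATAA, a core bound by GATA factors.
Cd36 (chr5:17835847-17836146, minus strand): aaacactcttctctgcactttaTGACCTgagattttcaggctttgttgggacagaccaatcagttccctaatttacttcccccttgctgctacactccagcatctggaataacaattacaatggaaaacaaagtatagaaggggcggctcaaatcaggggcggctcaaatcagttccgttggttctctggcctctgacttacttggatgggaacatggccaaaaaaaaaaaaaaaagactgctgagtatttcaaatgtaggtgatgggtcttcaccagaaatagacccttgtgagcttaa
Kdr (chr5:75978406-75978705, minus strand): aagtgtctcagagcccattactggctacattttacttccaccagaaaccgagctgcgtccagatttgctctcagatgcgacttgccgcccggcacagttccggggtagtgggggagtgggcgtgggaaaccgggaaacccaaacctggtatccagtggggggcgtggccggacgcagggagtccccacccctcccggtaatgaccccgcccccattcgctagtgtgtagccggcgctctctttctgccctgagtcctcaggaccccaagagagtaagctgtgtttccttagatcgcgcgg
Tie1 (chr4:118489800-118490099, minus strand): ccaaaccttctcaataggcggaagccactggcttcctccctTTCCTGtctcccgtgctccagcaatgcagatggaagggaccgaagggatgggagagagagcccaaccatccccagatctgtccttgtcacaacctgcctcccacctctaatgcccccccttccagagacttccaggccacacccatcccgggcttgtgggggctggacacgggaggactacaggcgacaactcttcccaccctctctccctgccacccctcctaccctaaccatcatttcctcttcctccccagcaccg
The Cd36 window held 1 nuclear receptor half-site, on the opposite strand with its first base 228 bases before the start. The Tie1 window held 1 ETS core 209 bases before the start, also on the opposite strand, and the Kdr window held none of the 3 motifs. Among the other windows, 2 of the 3 of Pparg held a half-site, the second of the 3 of Egfl7 held a half-site 150 and an ETS core 81 bases before the start, its first held 2 ETS cores, and those of Cav1 held no match. Of all 32851 RefSeq promoters of this length, 16.3% held the half-site, 30.6% the ETS core and 11.2% the GATA core, so none of these matches is rare, and a window without a match says only that these letters are not in it.

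**Figure D1:**
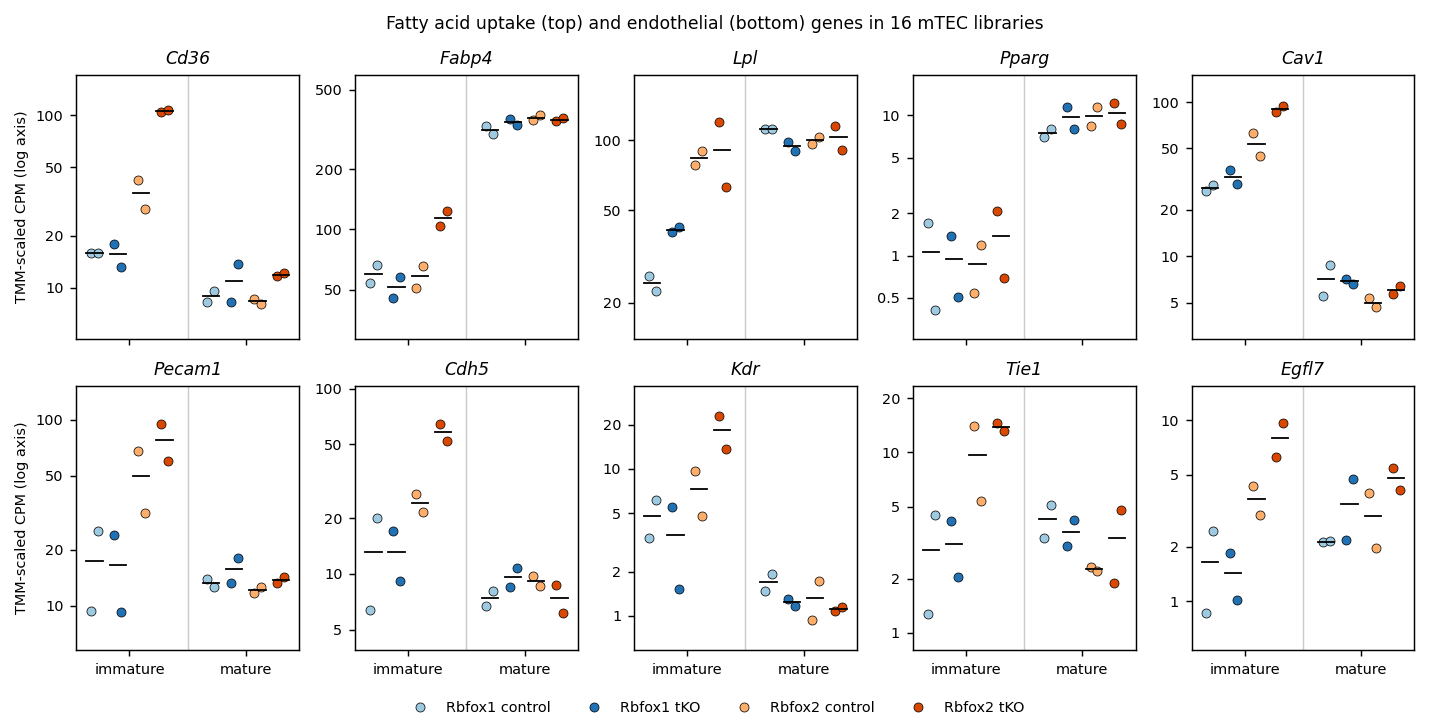
Level of each of the 10 genes in every library, as TMM-scaled CPM on log axes that differ between panels. Each point is 1 mouse, bars are means of 2 mice, and colours give line and genotype. In immature mTEC the highest libraries of Cd36, Fabp4, Cav1, Cdh5, Kdr and Egfl7 are the 2 Rbfox2 tKO libraries, while in mature mTEC the groups lie close together.

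In immature mTEC of the Rbfox2 line, the comparison the genes were chosen on, all 10 genes had a higher mean in tKO than in control mice. Levels are given as CPM scaled with the TMM method over all 16 libraries, with the male mouse first and the female second. Fitted differences are log2 fold changes of tKO over control with their standard error (SE). Cd36 was at 104 and 107 CPM in Rbfox2 tKO mice against 42.2 and 28.7 CPM in their controls. This 3.004-fold difference (log2 1.59, SE 0.19) was the largest of the 10, and each tKO library lay well above both controls. Within sex Cd36 was 2.47 times as high in the male and 3.75 times as high in the female tKO mouse. Fabp4, which encodes the fatty acid binding protein of adipocytes and capillaries, was at 104 and 123 CPM against 50.8 and 65.7 CPM. Its groups did not overlap either, and its difference of 0.98 (SE 0.17) was close to a doubling in each sex (2.04 and 1.88 times).

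The uptake genes did not behave as a block. Cav1, the main coat protein of caveolae, was at 86.2 and 94.3 CPM against 62.7 and 44.8 CPM (log2 0.76, SE 0.17), without overlap. Lpl, the lipase that releases fatty acids from lipoproteins, was at 120 and 62.6 CPM against 77.8 and 90.2 CPM. The tKO libraries of Lpl lay on either side of the controls, and its fitted difference of 0.14 (SE 0.21) turned to -0.40 without the male tKO mouse. Pparg had 1 to 4 counts in each of the 8 immature libraries, under the filter of a minimum count of 10, and was not fitted there.

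The 5 endothelial genes were also higher in the Rbfox2 tKO mean, with groups that overlapped for 2 of them. Cdh5, the cadherin of endothelial junctions, was at 64.6 and 52.3 CPM in tKO against 27.0 and 21.5 CPM in control mice (log2 1.28, SE 0.32). Kdr, the VEGF receptor 2, was at 22.9 and 13.8 CPM against 9.73 and 4.78 CPM (1.33, SE 0.48), and Egfl7, a secreted factor of endothelium, was at 6.26 and 9.64 CPM against 4.32 and 2.99 CPM (1.11, SE 0.57). Both tKO libraries lay above both controls for these 3 genes, as for Cd36, Fabp4 and Cav1, which made 6 of the 9 fitted genes. Of all 13060 features tested, 17.6% had both tKO libraries above both controls, but these genes were selected on this comparison and nothing is read from these shares. Only the tKO libraries brought Egfl7, with 9 and 14 counts there and 2 to 8 elsewhere, past the filter.

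Pecam1 and Tie1 overlapped between genotypes. Pecam1, the adhesion molecule CD31, was at 95.2 and 59.9 CPM in tKO against 68.1 and 31.7 CPM in control mice (0.64, SE 0.36), so that the female tKO mouse lay under the male control. Tie1, a receptor tyrosine kinase of endothelium, was at 14.6 and 13.1 CPM against 14.1 and 5.38 CPM (0.51, SE 0.48). Both differences turned on the male control mouse. Without it that of Pecam1 was 1.30 and that of Tie1 1.36, and without the female control they were 0.21 and 0.00.

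The level of most of these genes in immature mTEC differed between the 2 lines as well as between genotypes. Cd36 was at 13.3 to 18.0 CPM in all 4 Rbfox1 line libraries, under the lowest Rbfox2 line control at 28.7 CPM. Lpl was at 22.4 to 42.3 CPM in the Rbfox1 line and 62.6 to 120 CPM in the Rbfox2 line, and Pecam1 at 9.17 to 25.2 against 31.7 to 95.2 CPM. Cav1, Cdh5, Tie1 and Egfl7 likewise had no Rbfox1 line library above the lowest Rbfox2 line library. Fabp4 was the exception among the uptake genes with enough counts, with 45.3 to 65.9 CPM in the Rbfox1 line and 50.8 to 65.7 CPM in Rbfox2 line controls. Line, litter and any batch that went with the line cannot be told apart, and this difference was not tested.

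In immature mTEC of the Rbfox1 line none of the 9 genes tested was called, at an adjusted p under 0.05 and a fold change over 2 (quasi-likelihood test of edgeR, p adjusted by Benjamini and Hochberg, 0.0306% of 13060 features called). At an unadjusted p under 0.05 there was 1 gene, against 5.9% of all features, and DESeq2 called none. That gene was Lpl, at 40.2 CPM in the female and 42.3 CPM in the male tKO mouse against 26.1 and 22.4 CPM in controls. Its difference of 0.76 (SE 0.26) had an adjusted p of 0.730, and 0.0974 to 0.9999 under the 13 alternatives. Cd36 was at 18.0 and 13.3 CPM against 15.8 and 15.9 CPM (log2 -0.01, SE 0.26, adjusted p = 0.998 from edgeR), and Fabp4 at 45.3 and 57.6 against 53.8 and 65.9 CPM (-0.23, SE 0.18, adjusted p = 0.898). Cav1, at 36.04 and 29.6 against 26.5 and 28.9 CPM, and Lpl were the 2 of 9 genes with both tKO libraries above both controls, a share of 22.2% beside 17.9% of all features.

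The endothelial genes of the Rbfox1 line were high or low together in single mice of either genotype. Pecam1 was at 24.0 and 9.17 CPM in the female and male tKO mouse and at 9.40 and 25.2 CPM in the female and male control. Cdh5 had the same order, with 17.1 and 9.17 against 6.41 and 19.9 CPM. The high libraries were thus the female tKO and the male control mouse, also for Kdr (5.54 and 6.11 CPM against 1.53 and 3.42 CPM in the other two), Tie1 (4.16 and 4.48 against 2.04 and 1.28 CPM) and Egfl7 (1.85 and 2.44 against 1.02 and 0.85 CPM). Fitted differences of the 5 genes ran from -0.40 to 0.10, with SE of 0.40 to 0.81 and adjusted p of 0.957 to 0.9998, and each changed sign when single libraries were left out.

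**Figure D2:**
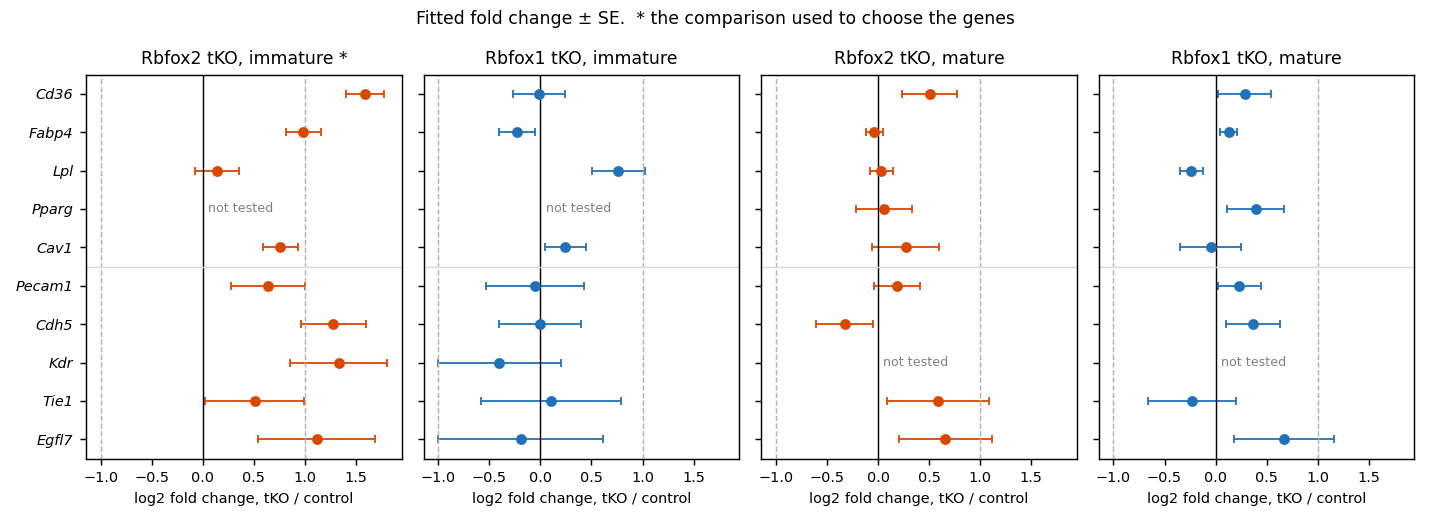
Fitted log2 fold change of tKO over control for each gene in the 4 comparisons, with bars of 1 SE on each side and dashed lines at a fold change of 2 in each direction. The asterisk marks the comparison on which the genes were chosen, where differences reach 1.59 (Cd36). Elsewhere no gene passed the test, the largest difference being 0.76 (Lpl in immature Rbfox1 tKO mTEC), and genes with too few counts are marked as not tested.

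In mature mTEC of the Rbfox2 line none of the 9 genes tested was called, nor did any reach an unadjusted p under 0.05 or a call by DESeq2 (0.0277% of 18021 features called, 5.34% at an unadjusted p under 0.05). Cd36 was at 11.7 and 12.2 CPM in tKO against 8.63 and 8.09 CPM in control mice, a difference of 0.51 (SE 0.27) with an adjusted p of 0.926 from edgeR. Fabp4 was at 348 and 359 CPM against 353 and 372 CPM (-0.04, SE 0.08, adjusted p = 0.991). The groups of Fabp4 overlapped and its difference was small beside that of the immature cells of the same mice, although the difference between the populations was not tested. Cdh5, at 8.68 and 6.19 against 9.80 and 8.58 CPM, was -0.32 (SE 0.28, adjusted p = 0.948), and Kdr, with 4 to 7 counts in each library of the line, was not tested. Cd36, Cav1, Pecam1 and Egfl7 had both tKO libraries above both controls, or 44.4% of 9 genes beside 17.2% of all features.

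In mature mTEC of the Rbfox1 line none of the 9 genes was called, 1 reached an unadjusted p under 0.05 and DESeq2 called none (0.0166% of features called, 3.35% at an unadjusted p under 0.05). Lpl was at 98.3 and 90.2 CPM in tKO against 111 and 111 CPM in control mice, a difference of -0.24 (SE 0.11, adjusted p = 0.9996 from edgeR). Cd36 was at 8.25 and 13.7 CPM against 8.24 and 9.64 CPM (0.29, SE 0.26) and Fabp4 at 355 and 333 against 329 and 300.0 CPM (0.13, SE 0.08), both with an adjusted p of 0.9996. Of the 9 genes, 4 had both tKO libraries above both controls, beside 15.8% of all features. The differences of the 2 lines in mature mTEC, compared gene by gene in 1 fit, had adjusted p of 0.994 or more from edgeR for each of the 9 genes, the largest being 0.82 (SE 0.66) for Tie1.

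Between the 2 populations of control mice 3 uptake genes were higher and 2 lower in mature mTEC, and 3 of the 5 endothelial genes were lower. Of the 9 genes tested, 3 were higher and 5 lower in mature than in immature mTEC, where 23.5% of 15357 features were higher and 10.8% lower (edgeR, 8 control libraries). Fabp4 rose 5.77-fold, from 50.8 to 65.9 CPM in the 4 immature libraries to 300.0 to 372 CPM in the 4 mature libraries (log2 2.53, SE 0.12, adjusted p = 8.45e-09). Pparg rose from 1 to 4 counts to 33 to 47 counts a library (3.13, SE 0.40, adjusted p = 2.05e-05), without overlap. Lpl rose from 22.4, 26.1, 77.8 and 90.2 CPM to 96.1 to 111 CPM (1.02, SE 0.34, adjusted p = 0.0188). The wide immature range of Lpl is the line difference above. Its call was lost with DESeq2 (adjusted p = 0.0678) and without the female (0.76) or the male (0.73) immature control of the Rbfox1 line, or the mature female one (0.99).

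Cd36 and Cav1 went the other way. Cd36 fell by 1.52 on the log2 scale (SE 0.30, adjusted p = 0.000672 from edgeR), from 15.8, 15.9, 28.7 and 42.2 CPM in immature to 8.09 to 9.64 CPM in mature libraries, and Cav1 fell by 2.70 (SE 0.30, adjusted p = 6.53e-06), from 26.5 to 62.7 CPM to 4.66 to 8.78 CPM. Fabp4 and Cd36, the 2 uptake genes with the clearest difference in immature Rbfox2 tKO mTEC, thus changed in opposite directions with maturation. In the 2 immature Rbfox2 tKO libraries Fabp4 was at 103.6 and 123 CPM, still under the lowest of all 8 mature libraries, whereas Cd36 was further from the mature level than in any control.

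Among the endothelial genes, Kdr fell by 1.93 (SE 0.38, adjusted p = 0.000667), Pecam1 by 1.36 (SE 0.41, adjusted p = 0.0121) and Cdh5 by 1.13 (SE 0.33, adjusted p = 0.00993, all edgeR). Pecam1 was at 11.7 to 13.9 CPM in mature libraries and at 9.40, 25.2, 31.7 and 68.1 CPM in immature ones, so that 1 immature library lay under the mature range. Cdh5 (6.76 to 9.80 CPM mature, 6.41 to 27.0 CPM immature) overlapped in the same library. Without the male immature control of the Rbfox2 line the differences of Pecam1 and Cdh5 were -0.78 and -0.92, under the fold threshold, as was that of Cdh5 when 10 counts were required in every library (-0.98). Tie1 was not called (-0.85, SE 0.53, adjusted p = 0.183), and without the female immature control of the Rbfox1 line it was (-1.24, adjusted p = 0.0313). Egfl7, at 1.96 to 3.97 CPM in mature and 0.85 to 4.32 CPM in immature controls, was not tested.

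**Figure D3:**
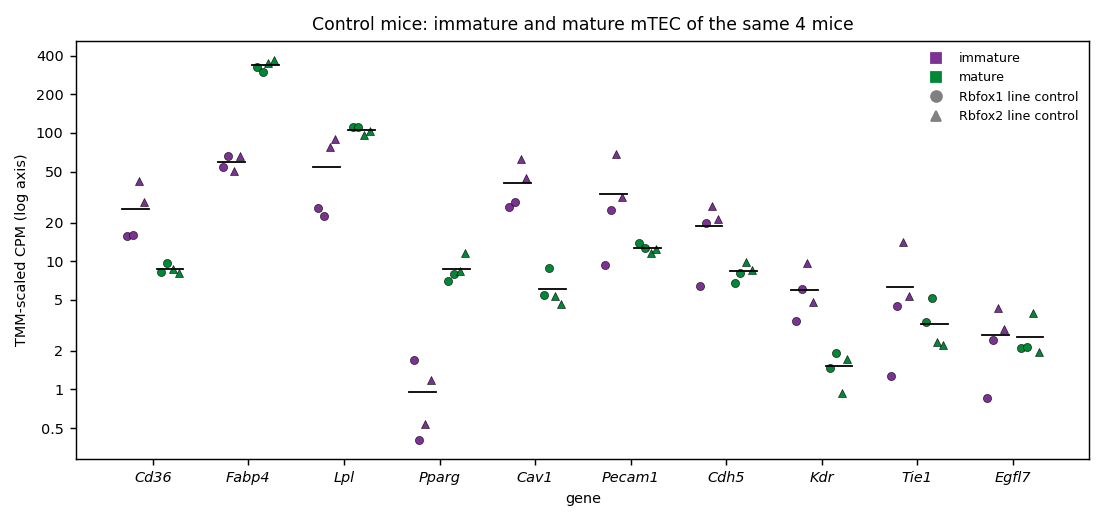
Level of each gene in immature (purple) and mature (green) mTEC of the same 4 control mice, as TMM-scaled CPM on a log axis. Circles are Rbfox1 line and triangles Rbfox2 line mice, and bars are means of 4 libraries. Fabp4, Lpl and Pparg are higher in mature cells and Cd36, Cav1, Pecam1, Cdh5 and Kdr lower, and the mature libraries of a gene lie closer together than the immature ones for most genes.

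Levels of different genes were compared per kilobase of exon, as means of the 4 control mice. In immature controls the order was Fabp4 (13.2 CPM per kb), Cav1 (11.8), Cd36 (7.14), Pecam1 (5.39), Lpl (5.16), Cdh5 (4.45), Tie1 (1.28), Egfl7 (0.74), Kdr (0.67) and Pparg (0.33). The range of every gene in this order overlapped that of its neighbour. In mature controls the order was Fabp4 (75.4 CPM per kb), Lpl (10.1), Pparg (2.95), Cd36 (2.41), Pecam1 (2.04), Cdh5 (1.98), Cav1 (1.76), Egfl7 (0.71), Tie1 (0.66) and Kdr (0.17). There the ranges of Fabp4, Lpl and Pparg were apart, as were those of Cd36 and Pecam1, of Cav1 and Egfl7 and of Tie1 and Kdr. The exon length of Fabp4, 4489 bases in 1 block, spans its introns because the annotation includes transcripts that retain them, which lowers its level per length.

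The wider endothelial list, 40 further genes that mark vascular endothelium, was mostly higher in immature Rbfox2 tKO mTEC without a called gene. In the means 31 of the 40 genes were higher and 7 lower in tKO, and 19 had both tKO libraries above both controls against 1 below. Among the 27 tested, 15 lay above and 1 below (55.6% and 3.7% beside 17.6% and 17.7% of all features). Of the 27 genes tested none was called by edgeR (0.0536% of all features) or DESeq2. Of these 27, 6 had an unadjusted p under 0.05, all higher (6.25% of all features in either direction). Nothing is read from these counts, since the list was chosen with this comparison known. The median log2 fold change was 0.61 beside -0.0002 over all features. Of the 27, 6 passed the filter only through the tKO libraries. Over the other 21 genes the median was 0.31 with 19 positive and 4 at an unadjusted p under 0.05. Both tKO libraries lay above both controls for 11 of these 21. Plvap, the protein of fenestral diaphragms, was at 57.0 and 41.3 CPM against 22.7 and 20.9 CPM (1.19, SE 0.33, adjusted p = 0.445 from edgeR), and Flt1, the VEGF receptor 1, at 41.0 and 28.2 against 21.1 and 19.1 CPM (0.80, SE 0.26, adjusted p = 0.620). Emcn, a sialomucin of venous and capillary endothelium, had 14 and 11 counts against 4 and 1 (2.58, SE 0.81, adjusted p = 0.602), and it was among the genes that passed the filter only through tKO. With no filter on low counts Plvap and Emcn were called (adjusted p = 0.00326 and 0.0288 from edgeR). Nothing is read from these calls either, for the same reason, and that of Emcn rests on few counts.

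In the other tKO comparisons none of the genes on this list was called by edgeR or DESeq2, and more were positive than negative in mature but not in immature mTEC. In immature mTEC of the Rbfox1 line 11 of 27 genes were positive, with a median of -0.18. Both tKO libraries lay above both controls for 5 and below for 2 (18.5% and 7.41% beside 17.9% and 17.4% of all features). There were 3 genes with an unadjusted p under 0.05 (11.1% beside 5.9% of all features). They were Plvap (-1.04, SE 0.43), Emcn (-2.10, SE 0.98) and Ly6c1 (0.82, SE 0.36), with adjusted p of 0.818 to 0.839 (edgeR). In mature mTEC of the Rbfox2 line 24 of 32 genes were positive with a median of 0.18, and 10 had both tKO libraries above both controls against 2 below, or 31.2% and 6.25% beside 17.2% and 17.7% of all features. Only 1 reached an unadjusted p under 0.05 (3.12% beside 5.34%). That gene was Clec14a, a C-type lectin of endothelium, with 10 and 18 counts against 5 and 4 (1.66, SE 0.57, adjusted p = 0.741 from edgeR). The next by p were Cd34 (0.32, SE 0.15) and She (-0.57, SE 0.31), both with an adjusted p of 0.926. Of the same genes in mature Rbfox1 tKO mTEC, 21 of 32 were positive with a median of 0.08, and 9 had both tKO libraries above and 2 below both controls (28.1% and 6.25% beside 15.8% and 15.1% of all features). The unadjusted p of 4 was under 0.05, 2 in each direction (12.5% beside 3.35%), among them Sele (0.79, SE 0.31), Esm1 (1.29, SE 0.54) and Tal1 (-0.63, SE 0.27), each with an adjusted p of 0.9996.

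The wider list of 60 genes of fatty acid uptake, binding, storage and oxidation did not share the difference of Cd36 and Fabp4. In immature Rbfox2 tKO mTEC 48 genes were tested and none called by edgeR or DESeq2, 25 were positive, and the median was 0.02. Of the 48, 12 had both tKO libraries above and 12 below both controls (25% each beside 17.6% and 17.7% of all features). Only the tKO libraries brought 4 of the 48 past the filter. Over the other 44 the median was -0.006 with 21 positive, and 10 had both tKO libraries above both controls. Of 6 genes with an unadjusted p under 0.05 (6.25% of all features), 3 were higher and 3 lower. Mgll, which breaks down monoglycerides, was at 85.5 and 79.2 against 60.0 and 52.0 CPM (0.57, SE 0.17), and Cavin2, a caveolar coat protein, at 18.1 and 15.8 against 9.19 and 3.58 CPM (1.39, SE 0.42). Ppard, a nuclear receptor related to Pparg, was lower, at 39.6 and 39.9 against 57.8 and 59.1 CPM (-0.54, SE 0.17). The adjusted p of these 3 genes was 0.491 to 0.602 (edgeR).

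Elsewhere the median of the fatty acid list was 0.04 in immature mTEC of the Rbfox1 line, with 29 of 48 genes positive and 6 at an unadjusted p under 0.05 (12.5% beside 5.9% of all features), led by Lipg (-0.52), Fasn (-0.31) and Hadhb (0.36). For the Rbfox2 line in mature mTEC it was -0.07, with 15 of 51 positive, and 6 genes reached an unadjusted p under 0.05 (11.8% beside 5.34%), 5 of them lower. Acsl3, an acyl-CoA synthetase, was at 76.5 and 91.3 against 116 and 106 CPM there (-0.41, SE 0.11, adjusted p = 0.430 from edgeR), Cebpb, a transcription factor of adipocyte differentiation, differed by 0.99 (SE 0.35) and Slc27a3, a fatty acid transport protein, by -0.71 (SE 0.31). In mature mTEC of the Rbfox1 line the median was 0.02, with 29 of 51 positive. Cebpb differed there by 1.003 (SE 0.34) and Slc27a3 by -0.54 (SE 0.31). None of these named genes was called by edgeR or DESeq2, but Cebpb was without a filter on low counts (adjusted p = 0.0228) and without the female tKO mouse (1.59, adjusted p = 0.0402).

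**Figure D4:**
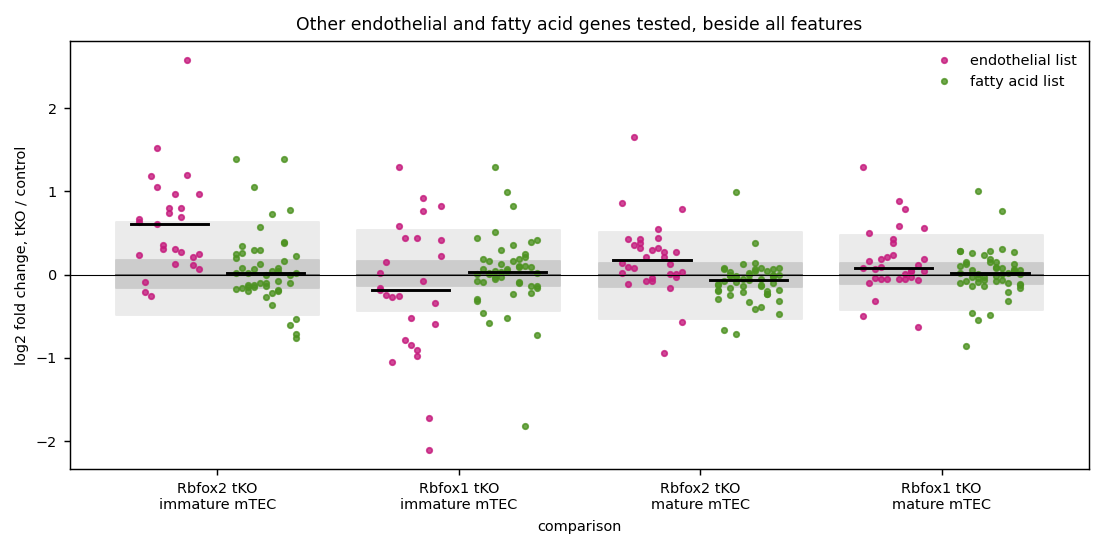
Log2 fold change of tKO over control for the tested genes of the wider endothelial (pink) and fatty acid (green) lists in the 4 comparisons. Each point is 1 gene, black bars are list medians, and grey bands hold the middle 50% (dark) and 90% (light) of all features with the median as a grey line. The endothelial median is 0.61 in immature Rbfox2 tKO mTEC and between -0.18 and 0.18 elsewhere. The 0.61 includes 6 genes that passed the filter only through the tKO libraries, and over the other 21 it is 0.31. The lists were chosen with that comparison known. The fatty acid medians lie between -0.07 and 0.04.

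Between the populations of control mice the endothelial list held called genes of both directions. Of 26 genes tested 9 were higher and 7 lower in mature mTEC (34.6% and 26.9% beside 23.5% and 10.8% of all features), with a median of 0.23 beside 0.01 over all features. Those that fell most were Cd93 (-2.48, SE 0.42), Adgrf5 (-1.87, SE 0.26), Eng, a TGF-β coreceptor (-1.84, SE 0.49), Sox7 (-1.59, SE 0.34) and Mmrn2 (-1.53, SE 0.47), with adjusted p of 4.39e-05 to 0.0133 (edgeR). Those that rose most were Tal1, also a factor of blood cells (3.84, SE 0.58), Erg (2.65, SE 0.32), Nos3 (2.01, SE 0.58), S1pr1, which lymphocytes also carry (1.89, SE 0.21), and Sele (1.88, SE 0.38), with adjusted p of 6.77e-06 to 0.00915.

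Of the fatty acid list 11 of 49 genes rose and 7 fell between immature and mature mTEC, or 22.4% and 14.3%, close to the 23.5% and 10.8% of all features, with a median of -0.14. Fabp3, the binding protein of heart and muscle, rose from 0 to 2 counts to 60 to 73 counts a library (5.71, SE 0.51), and Fabp2 (4.26, SE 0.45) and Fabp1 (2.81, SE 0.37), of intestine and liver, rose with it, as did Cidec, of fat droplets (4.29, SE 0.48), and Dgat2, of triglyceride synthesis (2.47, SE 0.13). Fabp5, of epidermis and the most abundant binding protein of the list, is added here with its values seen, and rose by 1.49 (SE 0.12, adjusted p = 4.77e-07 from edgeR). With Fabp4 these were 5 binding proteins that rose, and Fabp7 had too few counts to be tested. Slc27a3 (-4.16, SE 0.18), Angptl4, an inhibitor of lipoprotein lipase (-3.68, SE 0.32), Cavin3 (-2.38, SE 0.20), Slc27a6 (-2.19, SE 0.33) and Vldlr (-1.87, SE 0.27) fell. The 5 that rose most and the 5 that fell most had adjusted p of 8.17e-05 or less (edgeR).

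Genes of other cell types were read in the same libraries as sums of CPM over fixed lists. In immature mTEC the 40 endothelial genes summed to 705 to 905 CPM in Rbfox2 tKO, 495 to 737 CPM in Rbfox2 controls and 259 to 456 CPM in the Rbfox1 line, and the 5 named endothelial genes to 149 to 204, 66.3 to 123 and 21.4 to 58.2 CPM. Ackr1, of venules, was at 0 in all 16 libraries, and Esm1, of angiogenic tip cells, at 0 in every group of immature mTEC except the Rbfox1 controls. The 6 lymphatic endothelial genes, led by Pdpn, which mTEC also express, summed to 300.0 to 306 CPM in Rbfox2 tKO against 223 to 271 CPM in their controls, with Mmrn1 at 0. The 9 genes of red cells and platelets, led by Hba-a1 and Alas2, summed to 73.7 to 105 CPM against 40.5 to 49.6 CPM. All 4 that could be tested had both tKO libraries above both controls, where 17.6% of all features did. Nothing is read from this share, since the lists were chosen with this comparison known. Whether these 4 passed the filter only through the tKO libraries was not checked. The 10 fibroblast genes, led by Col3a1 and Dcn, summed to 2387 to 3007 CPM against 2039 to 2382 CPM, and all 8 tested were positive with a median of 0.29. In the Rbfox1 line the fibroblast sum was 450 to 820 CPM.

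The 12 mural cell genes, led by Rgs5, which accompany vessels, had lower sums in Rbfox2 tKO. These sums were 3570 to 4321 CPM against 4479 to 4849 CPM in controls. Of the 12 genes, 5 were higher and 7 lower in the means, and the median of the 10 tested was -0.17. The 11 macrophage genes summed to 37.2 to 42.4 against 21.6 to 32.9 CPM, with Adgre1, Cd163 and Marco at 0. The 10 adipocyte genes summed to 20.2 to 24.1 against 15.5 to 15.7 CPM, with Adipoq and Cfd at 0 in both groups. Thymocyte genes (13.9 to 20.6 against 16.2 to 19.7 CPM) and dendritic and B cell genes (6.26 to 9.64 against 8.65 to 12.5 CPM) were low in both. None of the genes on these lists was called in a tKO comparison. Sums of the 5 named endothelial genes and of the lymphatic, fibroblast, red cell, macrophage and adipocyte lists were thus higher in both Rbfox2 tKO than in both Rbfox2 control libraries. The sum of the 40 endothelial genes overlapped. The fibroblast gap was narrow, from 2382 CPM in a control to 2387 CPM in a tKO library. In the means 4 adipocyte genes were higher and 4 lower, and 7 of the 10 had under 3 counts in each group. For macrophage genes 5 were higher and 3 lower, and for lymphatic genes 3 and 2. In the Rbfox1 line the red cell sum reached 96.1 CPM in the male control and the macrophage sum 38.7 CPM in the male tKO mouse. Each was above 1 Rbfox2 tKO library. The part of such cells in the levels of the genes was not tested. In bulk RNA, more cells of a type and more RNA per cell cannot be told apart.

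**Figure D5:**
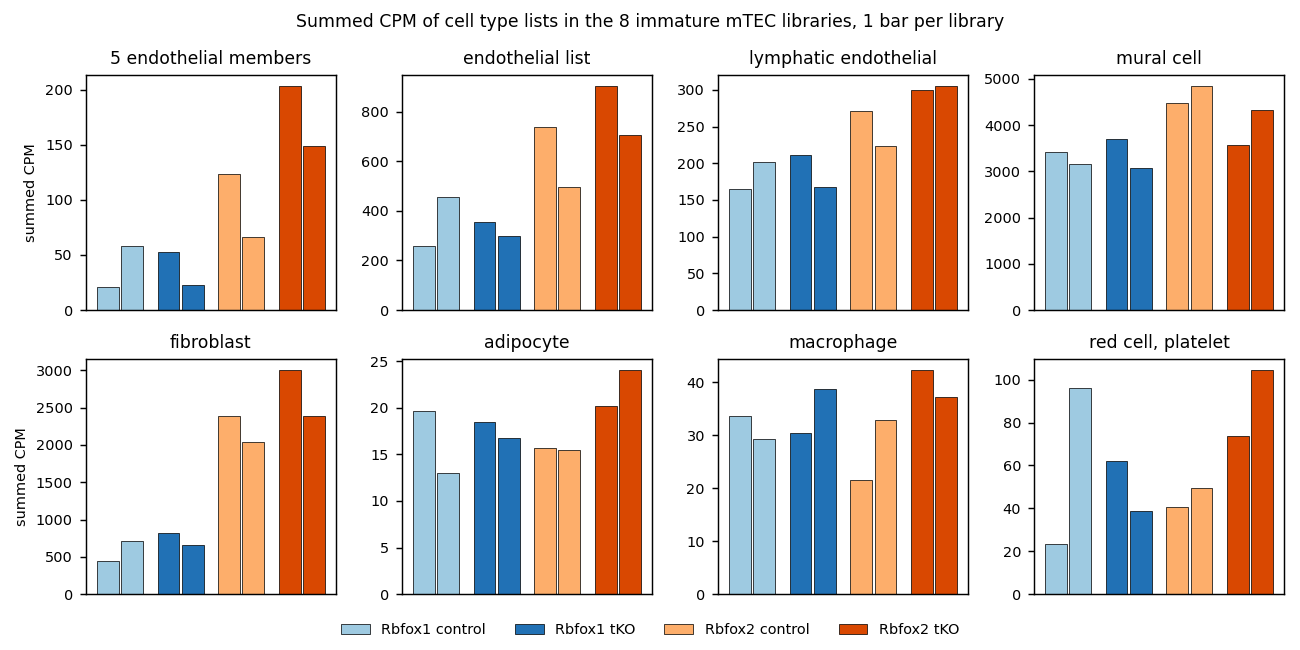
Summed TMM-scaled CPM of lists of cell type genes in the 8 immature mTEC libraries, 1 bar per library from 0, with panels on different scales and colours for line and genotype. Sums of the endothelial genes are highest in the Rbfox2 tKO libraries for the 5 named genes (149 and 204 CPM), mural sums are lower there than in Rbfox2 controls, and fibroblast sums separate the Rbfox2 from the Rbfox1 line.

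Some lists of other tissues had higher sums in mature than in immature mTEC and some lower. The adipocyte list summed to 130 to 148 CPM over all 8 mature libraries against 13.0 to 24.1 CPM over the immature ones, the macrophage list to 456 to 533 against 21.6 to 42.4 CPM, and the enterocyte and hepatocyte list to 1029 to 1208 against 87.5 to 183 CPM. The endothelial list summed to 465 and 473 CPM in mature Rbfox2 tKO against 436 and 438 CPM in controls, and to 460 and 478 against 431 and 458 CPM in the Rbfox1 line, which is a narrow range beside that of immature mTEC. Over all 8 libraries of each population, dendritic and B cell genes (57.3 to 75.8 against 6.26 to 12.5 CPM) and thymocyte genes (60.5 to 74.1 against 11.1 to 38.3 CPM) were also higher in mature mTEC. Lymphatic endothelial genes (83.6 to 109 against 165 to 306 CPM) and mural genes (1223 to 1474 against 3069 to 4849 CPM) were lower, and red cell and platelet genes overlapped (60.2 to 84.6 against 23.5 to 105 CPM). Fibroblast genes were at 648 and 691 CPM in mature Rbfox2 tKO against 502 and 538 CPM in controls, under the 2039 to 3007 CPM of the immature cells of that line, and mural genes at 1251 and 1275 against 1389 and 1474 CPM. Of the lists of mTEC subsets in immature cells, muscle-like genes summed to 124 and 124 CPM in Rbfox2 tKO against 62.1 and 92.0 CPM in controls. In the means 3 of the 6 muscle-like genes were higher and 3 lower. Skin and sebaceous genes summed to 656 and 710 against 505 and 690 CPM, and cortical TEC genes to 238 and 243 against 209 and 257 CPM. The 10 mTEC genes summed to 10025 to 12896 CPM over immature libraries. The 9 genes read for RNA quality, led by the early response genes Jun, Fos and Egr1, summed to 2139 and 2248 CPM in immature Rbfox2 tKO against 1882 and 2007 CPM in controls, and to 2353 and 2671 against 1933 and 2147 CPM in the Rbfox1 line.

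Over the 8 immature libraries the genes most like Cd36, by Pearson's r of log2 CPM among 13059 other features, were Pgrmc1 (0.989), Cav1 (0.983), Tmem204 (0.982), Cd63 (0.979) and Scarb1 (0.973). The 8 libraries come from 4 groups of 2 lines and differ in depth, so the values are a description. Scarb1, a scavenger receptor related to CD36, was at 44.5 and 38.5 CPM in Rbfox2 tKO against 18.9 and 19.7 CPM in Rbfox2 controls and 7.13 to 12.9 CPM in the Rbfox1 line. Of the genes followed here, Egfl7 (0.944), Cdh5 (0.914), Kdr (0.900), Tie1 (0.883) and Pecam1 (0.878) were closer to Cd36 than Fabp4 (0.818) and Lpl (0.752). These 5 endothelial genes ranked 37, 130, 201, 289 and 313 of 13059, and Fabp4 and Lpl 710 and 1191. Many other features were thus as close. The libraries include those on which Cd36 was chosen, so no link between the genes is read from these values. The genes most like Cdh5 were Zbtb7a (0.972), Adgra2, Stt3a, Gypc and Ptn, with Egfl7 (0.957) and Pecam1 (0.9503) near them.

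The positions of the genes, on GRCm38 and by the GENCODE M21 annotation, were chromosome 5 from 17781690 to 17888801 for Cd36, chromosome 3 from 10204088 to 10208576 for Fabp4, chromosome 8 from 68880491 to 68907448 for Lpl, chromosome 6 from 115360951 to 115490399 for Pparg and from 17306335 to 17341452 for Cav1. The endothelial genes lay on chromosome 11 from 106654217 to 106750628 (Pecam1), chromosome 8 from 104101625 to 104144511 (Cdh5), chromosome 5 from 75932827 to 75978458 (Kdr), chromosome 4 from 118471191 to 118490061 (Tie1) and chromosome 2 from 26580014 to 26593120 (Egfl7). Counts are of reads over all exons of a gene. Pparg, Cav1 and Cdh5 have an antisense gene that shares no exon base with them. Egfl7 shares 64 exon bases with Agpat2 on the opposite strand, which had 1280 counts over the 16 libraries, and whether reads were counted by strand is not stated, so its low counts are uncertain to that extent.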

How the data were processed

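Counts of reads per gene in 16 libraries (8 mice) were deposited by the authors as 1 table without normalization. Alignment, removal of duplicates and counting used HISAT2 2.1.0, Picard 2.10.9 and featureCounts 1.6.0 with mm10, as listed in the submitters' processing notes, and the column names say that duplicate and unmapped reads were removed and libraries down-sampled. Depth therefore goes with population, and low genes are less precise in immature mTEC. Names, positions and exon lengths came from GENCODE M21. The quasi-likelihood test of edgeR 4.0.16 (R 4.3.3) was fitted after TMM scaling and filterByExpr with a minimum count of 10, either over both lines in 1 population (8 libraries, 4 residual degrees of freedom) or over the 8 control libraries. P values were adjusted over all features tested, and a call needed an adjusted p under 0.05 together with a log2 fold change beyond 1 in either direction. The fit of the control libraries held no term for mouse or line, so the mature and immature libraries of a mouse were treated as independent. With the mouse as a block, the calls of the 10 genes between the populations were the same. Printed CPM were scaled over all 16 libraries, and overlap of groups was read after the scaling of each fit. The test was tried on simulated counts.

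Replicates were separate mice. The 2 libraries of a group differed by 1.78 to 2.74 in chi-square per degree of freedom, more than counting noise gives. Mature and immature libraries of a number come from the same mouse by the labels (correlation of deviations 0.0885 to 0.164). The genes and gene lists were chosen with earlier results of these data known. Named in every comparison were the 10 genes, up to 5 called genes of the 2 wider lists in each direction or, if none was called, the 3 with the smallest p, and the leading genes of the other lists. A gene that this rule names in mature mTEC of the Rbfox1 line is not reported here. Alternatives were DESeq2 1.42.0, its size factors, library totals, omission of each library in turn, stricter and absent filters, a call without the fold, the replicate block, sex as a covariate, and fits of fewer or more libraries.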

Additional observations from a re-analysis of the deposited data

Results flagged for a closer look

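Egfl7 in the mature libraries of the 4 control mice had 1 library far from the other 3. The male control of the Rbfox2 line was at 3.97 CPM, and the others were at 1.96 to 2.14 CPM, so that the gap was 0.91 of the whole range, above the limit of Dixon's test for 4 samples. It was the only one of 20 such sets of 4 control libraries, 10 genes in each population, to pass that limit, which chance passes in about 1 of 20. The value rests on 17 counts, against 8 to 10 in the others. The tKO difference of Egfl7 in mature mTEC of the Rbfox2 line was 1.26 without this library and 0.66 with it, and it was not called either way. The cause was not tested.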

How the results depend on the processing

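The calls of the 10 genes in tKO comparisons of mature mTEC and of immature mTEC of the Rbfox1 line, none, held under every alternative run. With the replicate block, which pairs tKO and control mice of a number that share sex, the difference of Cdh5 in immature mTEC of the Rbfox1 line was 0.0407 in place of -0.01. With sex as a covariate it was 0.0385 and that of Pecam1 was 0.0306. The paired fit changed no other call. The numbers were not taken as pairs, since the labels do not say that tKO and control mice of a number are littermates. Deviations of tKO and control mice of a number correlated by 0.0628 to 0.146. Mature and immature libraries of the same mouse correlated by only 0.0885 to 0.164, so these values cannot decide whether the numbers are pairs. Leaving out 1 library at a time turned small differences. In immature mTEC of the Rbfox1 line they ran from -0.26 to 0.18 for Cd36, -0.92 to 0.83 for Pecam1, -0.59 to 1.04 for Cdh5, -1.60 to 0.20 for Kdr, -0.51 to 1.24 for Tie1 and -0.73 to 0.71 for Egfl7. In mature mTEC of the Rbfox1 line they ran from -0.12 to 0.61 for Cd36, -0.35 to 0.32 for Cav1, -0.0108 to 0.45 for Pecam1 and -0.50 to 0.0938 for Tie1, and of the Rbfox2 line from -0.14 to 0.20 for Lpl, -0.19 to 0.30 for Pparg and -0.26 to 1.07 for Tie1. The number of fatty acid list genes called in mature Rbfox1 tKO mTEC ran from 0 to 1. Without a filter on low counts 2 endothelial list genes were called in immature Rbfox2 tKO mTEC and 1 fatty acid list gene in mature Rbfox1 tKO mTEC. Nothing is read from those 2 calls, since the list was chosen with that comparison known. Between mature and immature controls, requiring 10 counts in every library left 5 of the 10 genes, 6 endothelial and 10 fatty acid list genes called. Pparg and Kdr were not tested there, and Cdh5 was, at -0.98 (adjusted p = 0.0246, edgeR), under the fold threshold. Of the list calls lost, 10 of 12 endothelial and all 8 fatty acid genes were not tested, and 2 endothelial genes were gained. Without the fold threshold 35 fatty acid list genes were called. Depth limits Pparg, Kdr, Tie1 and Egfl7, and 2 mice a group limit every tKO comparison. A library left alone in its group is assumed to vary like the other groups.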
